A study of Rattus norvegicus with 12 samples.

Results

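Acadvl, Acadl, Acadm, Acads, Etfa, Etfb and Etfdh encode the acyl-CoA dehydrogenases of mitochondrial fatty acid oxidation and the flavoproteins that take up their electrons. They were read on 12 Affymetrix rat arrays of left ventricular myocardium, sampled away from the infarct after ligation of the left anterior descending coronary artery. A probe set was taken as a member when its only gene symbol in the platform annotation was 1 of these 7, which gave exactly 1 probe set per gene: 7 of 14217 genes named by a single symbol, and 7 of 31042 probe sets. All 7 were bright enough to pass a filter on dim probe sets that 18625 passed.

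The diabetic rats were male Sprague-Dawley rats given streptozotocin, a toxin of pancreatic beta cells, once into the peritoneum at 65 mg/kg when 8 weeks old. Non-diabetic rats of the same strain, sex and age received citrate buffer by the same route. Both were kept for 10 weeks with no glucose control before ligation, and were killed 1, 7, 14, 28 or 56 days after it. A sham-operated group was taken from each condition, and how long those rats lived after their operation is not stated in the labels. Ages in the labels ran with the day after ligation, from 18 weeks in sham and day 1 rats to 26 weeks in the diabetic day 56 rats, except that the non-diabetic day 56 rats are labelled 22 weeks old. That array was kept at day 56, as its protocol states. The tissue label of the sham arrays speaks of an infarct, and their protocol of a sham operation was followed. RNA of 3 rats was pooled for each array, so every level rests on a single pool with no replicate of its own, and neighbouring levels of a gene cannot be ranked against a spread.

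The arrays carried the markers of heart muscle: 9 of 10 cardiomyocyte markers were on the array and all 9 passed the filter, with a summed intensity of 42490 to 52850 on diabetic arrays and 50070 to 54670 on non-diabetic arrays. Fibroblast markers summed to 5354 to 18620 on diabetic arrays and 5335 to 19220 on non-diabetic arrays, and macrophage markers to 1386 to 5318 and 615.6 to 5590 in the same order. Adipoq, Plin1, Lep, Ucp1, Cd3d, Ms4a1, Alb and Apoa2, which mark fat, lymphocytes and liver, lay below the filter. Other markers of these cells passed: 2 of 5 adipocyte, 1 of 2 brown adipocyte, 1 of 3 hepatocyte and 1 of 4 lymphocyte markers. The sums that follow take in all markers of a list on the array, also those below the filter. Adipocyte markers summed to 2752 to 5682 on diabetic arrays and 1946 to 4399 on non-diabetic arrays. In the same order, brown adipocyte markers summed to 1178 to 1659 and 1147 to 1506, and hepatocyte markers to 187.9 to 423.8 and 166.2 to 381.1. Lymphocyte markers summed to 16.36 to 61.41 and 53.16 to 84.91. In such bulk tissue, fewer cells of a type and less RNA per cell cannot be told apart. The 4 arrays of days 1 and 7 stood apart from the other 8 in the log2 difference between the 3′ and 5′ probe sets of beta-actin, a measure that varies with RNA integrity and labelling: it ran between 0.975 and 0.994 on the early 4, against 0.365 to 0.586 for the remaining 8. The same difference for Gapdh did not separate them, at 0.316 to 0.359 on the early 4 and 0.113 to 0.477 on the remaining 8. The beta-actin split coincides with the early days, so the early days and the measure cannot be told apart.

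As background, each turn of mitochondrial beta-oxidation starts with an acyl-CoA dehydrogenase, a flavoenzyme that introduces a double bond into the acyl chain. The enzymes divide the work by chain length, from very long (Acadvl) through long (Acadl) and medium (Acadm) to short chains (Acads). Their electrons pass to the electron transfer flavoprotein, a soluble dimer of an alpha subunit (Etfa) and a beta subunit (Etfb), and then to its oxidoreductase in the inner membrane (Etfdh), which reduces ubiquinone. Fatty acids are the main fuel of the adult heart, and in cardiac muscle the dehydrogenase genes are known targets of the fatty acid sensing receptor PPAR-alpha and its coactivator PGC-1.

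The genes lie on rat chromosomes 10 (Acadvl), 9 (Acadl), 2 (Acadm and Etfdh), 12 (Acads), 8 (Etfa) and 1 (Etfb) in the RefSeq annotation of build GRCr8. RefSeq promoter windows of that build were at hand for 6 of the 7, all but Acadl. The bases upstream of the annotated gene start are printed for 4 of them, 5′ to 3′ on the gene's strand. Acadm and Etfdh are shown as the pair with the most alike profiles over the arrays, Etfb as the member least like the others, and Acads as the member that passed a test. The windows lie at chr2:245542865-245543114 on the minus strand for Acadm, chr2:167060759-167061008 on the minus strand for Etfdh, chr1:102988249-102988498 on the plus strand for Etfb and chr12:47154083-47154258 on the plus strand for Acads. Capitals mark matches to any motif searched.
Acadm: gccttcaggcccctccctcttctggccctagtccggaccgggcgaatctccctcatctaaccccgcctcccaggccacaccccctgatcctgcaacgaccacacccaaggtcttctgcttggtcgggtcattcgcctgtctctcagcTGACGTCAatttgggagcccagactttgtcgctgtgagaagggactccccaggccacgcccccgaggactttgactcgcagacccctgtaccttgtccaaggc
Etfdh: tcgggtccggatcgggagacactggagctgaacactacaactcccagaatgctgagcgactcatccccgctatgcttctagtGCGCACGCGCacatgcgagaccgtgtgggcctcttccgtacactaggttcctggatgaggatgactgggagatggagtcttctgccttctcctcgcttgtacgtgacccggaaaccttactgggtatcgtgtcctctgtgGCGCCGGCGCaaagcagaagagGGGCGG
Etfb: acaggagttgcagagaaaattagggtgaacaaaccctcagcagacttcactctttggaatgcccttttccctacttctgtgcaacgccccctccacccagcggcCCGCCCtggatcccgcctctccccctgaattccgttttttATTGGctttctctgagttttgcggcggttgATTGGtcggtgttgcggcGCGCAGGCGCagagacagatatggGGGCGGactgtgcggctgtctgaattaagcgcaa
Acads: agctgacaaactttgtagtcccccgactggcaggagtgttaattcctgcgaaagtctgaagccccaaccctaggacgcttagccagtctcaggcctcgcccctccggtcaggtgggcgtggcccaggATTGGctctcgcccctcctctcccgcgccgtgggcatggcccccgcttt

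The motifs, searched on both strands, were the GC box GGGCGG, the nuclear receptor core AGGTCA, its direct repeat (2 copies of AGGTCA with 1 base between), the estrogen-related receptor element TCAAGGTCA, CCAAT, the NRF1 core (2 copies of GCGC with 2 bases between), the cyclic AMP response element TGACGTCA and the E box CACGTG. The direct repeat and the estrogen-related receptor element contain AGGTCA. Acadm held 1 match, the cyclic AMP response element, which 1.59% of 33469 rat promoters hold in a window of the same 250 bases. Etfdh and Etfb were the 2 of 6 windows with the NRF1 core, which 4.8% of all such promoters hold, and also the 2 with a GC box (30.47% of all). CCAAT stood in 3 of 6 windows, those of Acads, Etfa and Etfb, against 34.02% of all promoters at 250 bases and 25.32% at the 176 bases of Acads. AGGTCA stood in 1 of 6 windows, that of Acadvl, against 9.36% of all promoters at its 169 bases and 14.06% at 250 bases. None of the 6 held the direct repeat (0.05% of all at 250 bases), the estrogen-related receptor element (0.39%) or the E box (5.59%). The paired profiles of Acadm and Etfdh thus came with no searched motif in common. These are matches of letters, not binding sites.

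Levels are given as log2 of the intensity plus 16, which understates the change of dim genes, and are compared within a gene only. Acadvl, the membrane-bound dehydrogenase of very long chains, had levels in diabetic hearts of 10.76 after sham operation and 10.63, 10.56, 9.88, 11.03 and 10.96 on days 1, 7, 14, 28 and 56. In non-diabetic hearts they were 10.09 after sham operation and 10.68, 10.37, 10.20, 10.04 and 10.00 on the same days. The diabetic arrays were lowest on day 14 and highest on day 28, whereas the non-diabetic arrays were highest on day 1. The diabetic array was the higher one at sham and on days 7, 28 and 56.

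Acadl, the long-chain dehydrogenase, measured 12.30, 12.03, 12.19, 11.74, 12.63 and 12.59 in diabetic hearts from sham to day 56. The non-diabetic hearts gave 12.31, 12.25, 12.005, 11.50, 11.9998 and 12.004. Both conditions were lowest on day 14. From there the diabetic arrays of days 28 and 56 stood above every other Acadl value.

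For Acadm, the medium-chain dehydrogenase, diabetic hearts gave 11.78, 11.72, 11.90, 11.06, 12.26 and 12.14 from sham to day 56. Non-diabetic hearts gave 11.84, 11.85, 11.83, 10.71, 11.14 and 11.30. The first 3 time points lay close together in both conditions and day 14 was the low point of both. The non-diabetic arrays of days 28 and 56 stayed below their sham level, while the diabetic arrays of those days were above theirs.

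Acads, the short-chain dehydrogenase, had levels of 9.81, 9.99, 10.44, 9.04, 10.07 and 10.09 in diabetic hearts from sham to day 56. The non-diabetic levels were 9.69, 10.75, 10.58, 9.91, 9.25 and 9.38. Here the non-diabetic array was the higher one on days 1, 7 and 14 and the lower one at sham and on days 28 and 56. The non-diabetic arrays were highest on days 1 and 7.

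Etfa, the alpha subunit of the electron transfer flavoprotein, gave 10.90, 10.69, 10.90, 10.31, 10.98 and 10.89 in diabetic hearts, against 10.78, 11.06, 11.01, 10.08, 10.58 and 10.12 in non-diabetic hearts, from sham to day 56. Etfb, the beta subunit, gave 11.15, 10.81, 11.51, 11.18, 11.15 and 11.22 in diabetic hearts, against 11.35, 11.44, 11.25, 11.15, 11.03 and 11.13 in non-diabetic hearts. The subunits of this dimer thus differed in profile: Etfa was lowest on day 14 in both conditions, and Etfb had its lowest diabetic value on day 1 and its lowest non-diabetic value on day 28. Etfdh, the oxidoreductase, gave 10.54, 10.13, 10.60, 9.73, 10.62 and 10.61 in diabetic hearts, against 10.28, 10.43, 10.39, 9.03, 9.64 and 9.92 in non-diabetic hearts. Day 14 was its low point in both conditions. Over the 6 arrays of a condition, the diabetic and non-diabetic ranges overlapped for all 7 genes.

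**Figure D1:**
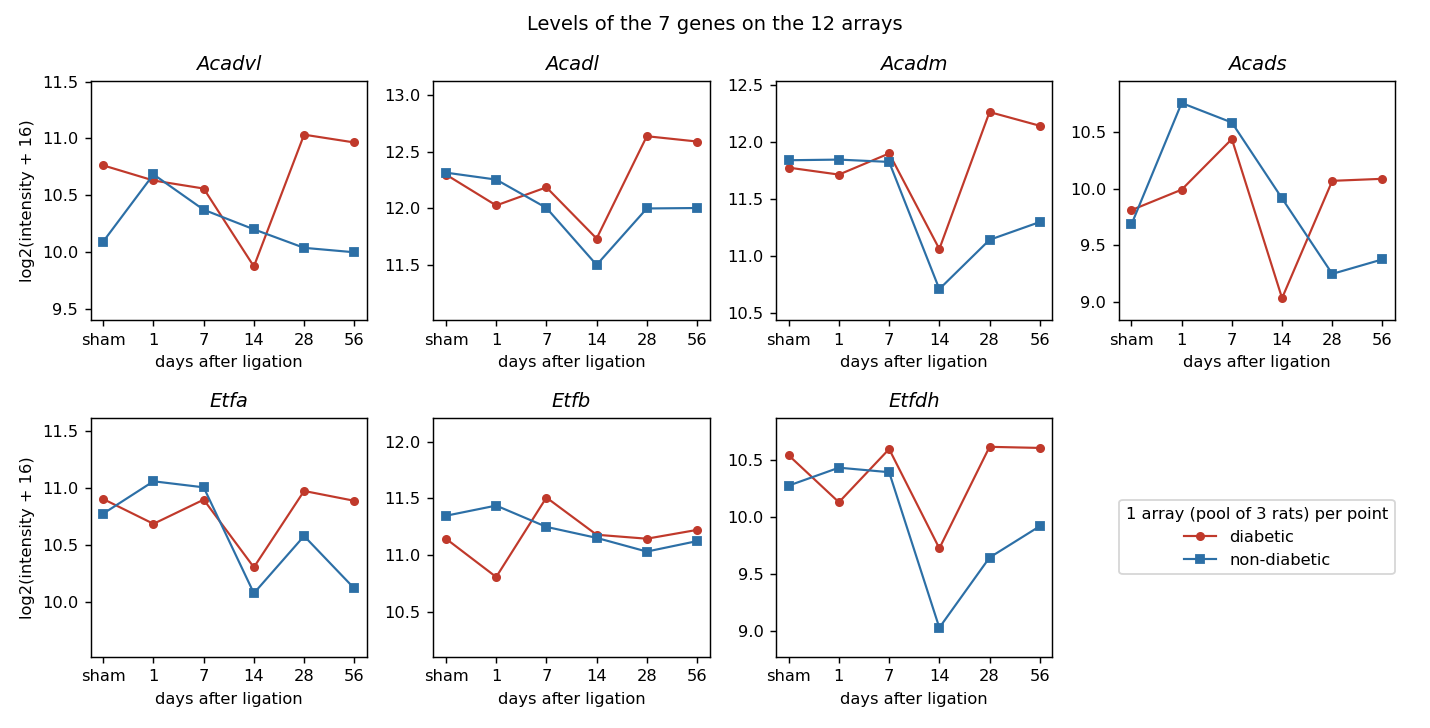
Levels of the 7 genes as log2(intensity + 16) on the vertical axis against the time point, with 1 array of 3 pooled rats per point. Red circles are diabetic and blue squares non-diabetic arrays. Apart from Etfb, day 14 is the low point of the diabetic arrays, and on days 28 and 56 the diabetic array lies above the non-diabetic one in all 7 panels.

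The first comparison asked whether diabetes moved the 7 genes over the whole course, with each time point as a pair. None of the 7 passed, and 5 of 7 had differences above 0. The median difference, diabetic minus non-diabetic, was 0.23 on the log2 scale, beside 0.01 over all 18625 probe sets, of which 52.6% were above 0. The limma test, with Benjamini-Hochberg adjustment over all probe sets and a threshold of 0.05, called 0.376% of all probe sets (70), a number that ran from 6 to 92 when a time point was left out. Etfdh had the highest difference (0.42 ± 0.17, SE over 6 pairs, limma adjusted p = 0.404), followed by Acadvl (0.41 ± 0.18, adjusted p = 0.472) and Acadm (0.37 ± 0.17, adjusted p = 0.47). Acadl stood at 0.23 ± 0.12 and Etfa at 0.17 ± 0.15. Acads (-0.02 ± 0.23) and Etfb (-0.06 ± 0.13) had differences near 0. As none passed, the direction was not settled for any of the 7. Without adjustment, limma's p was 0.0286 for Etfdh and 0.049 for Acadm, the 2 members under 0.05, as were 10.6% of all probe sets. An exact two-sided sign-flip permutation of the 6 pairs gave 0.125 for Etfdh (diabetic higher in 5 of 6 pairs) and 0.1875 for Acadm and Acadvl (4 of 6 each), where the smallest p it allows is 0.03125.

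These differences were also estimated on each of the 2 sets of arrays that the beta-actin measure separated. On sham and days 14, 28 and 56, Etfdh was at 0.66 (limma adjusted p = 0.213), Acadvl at 0.58 (0.349), Acadm at 0.56 (0.28), Etfa at 0.38 (0.398), Acadl at 0.36 (0.342), Acads at 0.19 (0.821) and Etfb at 0.01 (0.987). On days 1 and 7 alone Acadvl was at 0.07, Acadl at -0.02, Acadm at -0.03, Etfdh at -0.05, Etfb at -0.18, Etfa at -0.24 and Acads at -0.45, each with an adjusted p of 0.999. No member passed in either subset. The early subset holds only 2 pairs of arrays, too few to show that a difference is absent. Its 2 days were unlike: the median of the 7 genes was -0.30 on day 1 and 0.18 on day 7. This split of the time points was chosen with earlier results of these data known. The difference between the subsets was tested as an interaction, the diabetic minus non-diabetic difference on days 1 and 7 minus that at the other time points. It was below 0 for all 7 genes, with a median of -0.59 beside -0.11 for all probe sets, of which 36.9% were above 0, and none passed (limma adjusted p = 0.999 for each). It was likewise above 0 for 0 of 6 carnitine shuttle genes, 0 of 8 genes of the later steps of beta-oxidation, 0 of 14 citrate cycle and respiratory chain genes and 0 of 9 cardiomyocyte markers, so the common sign was not particular to the 7. Etfdh (-0.71 ± 0.30) and Etfa (-0.62 ± 0.28) had unadjusted p under 0.05, as did 753 of all probe sets (4.04%), while 0% of all probe sets passed after adjustment. For Etfa, both pairs of days 1 and 7 were below 0 and the 4 others above 0, and the share of all probe sets with this split is not given here.

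Taken time point by time point, the 7 genes stood furthest from all probe sets on days 28 and 56. On day 28 all 7 were higher on the diabetic array, against 45.1% of all probe sets, and 5 were more than 1.5-fold higher (0.585 on the log2 scale), against 13.7%. The median of the 7 was 0.82, beside -0.07 for all probe sets. On day 56 all 7 were again higher, against 69% of all probe sets, and 5 were more than 1.5-fold higher, against 13.3%. The median was 0.71, beside 0.18 for all probe sets. With 1 array on each side, a single day has no test.

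The leading genes on day 28 were Acadm (1.12), Acadvl (0.99), Etfdh (0.97) and Acads (0.82), with Acadl at 0.63, Etfa at 0.40 and Etfb at 0.11. On day 56 Acadvl led (0.96), before Acadm (0.85), Etfa (0.77), Acads (0.71), Etfdh (0.69), Acadl (0.58) and Etfb (0.10). Acadm, Acadvl, Acads and Etfdh were thus more than 1.5-fold higher on both days, 4 of 7 genes against 3.39% of all probe sets. For all 7, both diabetic arrays of these days were above both non-diabetic ones, which held for 22.9% of all probe sets. For Acadvl the values of the 2 days lay close together within a condition, at 11.03 and 10.96 in diabetic hearts and 10.04 and 10.00 in non-diabetic hearts. This did not hold for every gene: in non-diabetic hearts Etfa was at 10.58 and 10.12, and Etfdh at 9.64 and 9.92. With quantile normalization of the arrays, the day 56 counts were 6 higher and 2 more than 1.5-fold higher, and those of day 28 were 7 and 5. These days were singled out after the values were seen.

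**Figure D2:**
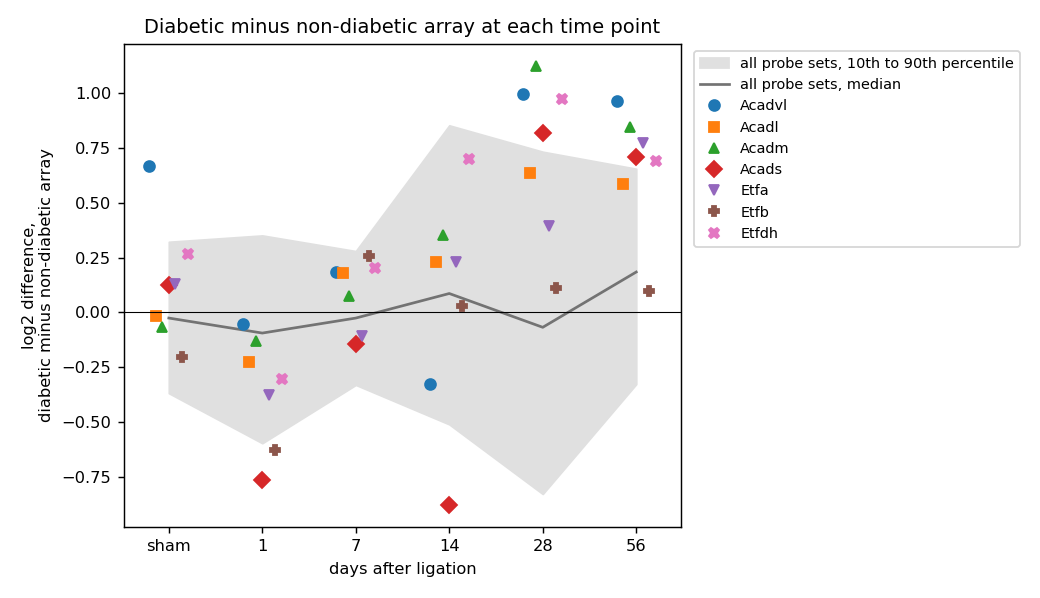
Diabetic minus non-diabetic log2 difference on the vertical axis at sham and at each day after ligation, with 1 symbol per gene and 1 pair of arrays per time point. The grey band spans the 10th to 90th percentile of all 18625 probe sets and the grey line is their median. On day 28 Acadm, Acadvl, Etfdh and Acads lie above the band, and Etfb stays inside it.

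Markers of fibroblasts and macrophages differed in sign between the 2 days. Fibroblast markers (6 of 6 measured) had a median diabetic minus non-diabetic difference of -1.78 on day 28 and 0.73 on day 56. Macrophage markers (5 of 5) were at -1.31 and 0.45, and neutrophil markers (3 of 4) at -1.95 and -0.17, on days 28 and 56. Smooth muscle markers (4 of 4) were at -0.80 and 0.75, adipocyte markers (2 of 5) at -0.75 and 1.12, and endothelial markers (3 of 4) at -0.46 and -0.45. Cardiomyocyte markers (9 of 10) were at 0.05 and 0.04. The beta-actin measure was 0.379 on the diabetic array and 0.586 on the non-diabetic array on day 28, and 0.365 and 0.409 in the same order on day 56. Neighbouring steps also had medians above 0 on both days: 8 genes of the later steps of beta-oxidation had medians of 0.91 and 0.92, above the 0.82 and 0.71 of the 7 genes, and 6 carnitine shuttle genes 0.69 and 0.58. A reference list of citrate cycle and respiratory chain genes had medians of 0.45 and 0.27, with 13 of 14 above 0 on each day. The part of these markers and measures in the result was not tested.

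At the other time points the 7 genes were nearer to all probe sets. After sham operation 4 of 7 were above 0 (45.7% of all probe sets), and Acadvl at 0.67 was the 1 past 1.5-fold (2.89% of all). On day 1 none was above 0 (39% of all), and Acads at -0.76 and Etfb at -0.63 were more than 1.5-fold lower (10.4% of all). The day 1 count above 0 was 1 with quantile normalization and with array medians set equal. On that day 0 of 14 citrate cycle and respiratory chain genes and 0 of 9 cardiomyocyte markers were above 0 as well. So were only 1 of 6 carnitine shuttle genes and 2 of 8 genes of the later steps, but 5 of 9 fatty acid responsive genes. The day 1 sign was thus not particular to the 7. On day 7 the 7 ran between -0.14 (Acads) and 0.26 (Etfb), with 5 above 0 (45.2% of all) and none more than 1.5-fold higher (2.12% of all) or lower (2.19% of all). On day 14 they spread widest, between -0.88 for Acads and 0.70 for Etfdh, with 5 of 7 above 0 (56.1% of all). Acads was the 1 more than 1.5-fold lower that day (7.26% of all) and Etfdh the 1 more than 1.5-fold higher (20.9% of all).

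The course after ligation was then followed within each condition, against that condition's own sham array. Day 14 was low in both. In diabetic hearts 5 of 7 genes were more than 1.5-fold below sham on day 14, against 4.85% of all probe sets: Acadvl at -0.89, Etfdh at -0.82, Acads at -0.77, Acadm at -0.71 and Etfa at -0.60. In non-diabetic hearts 4 of 7 were, against 19.5% of all probe sets: Etfdh at -1.25, Acadm at -1.13, Acadl at -0.81 and Etfa at -0.70. Acadvl (0.11) and Acads (0.23) were above sham on that non-diabetic array. The median of the 7 was -0.71 in diabetic hearts and -0.70 in non-diabetic hearts, beside 0.06 and -0.04 over all probe sets. On the same arrays fibroblast markers had medians of 1.91 in diabetic hearts and 0.44 in non-diabetic hearts against sham, cardiomyocyte markers 0.05 and -0.13, and the citrate cycle and respiratory chain list -0.16 and -0.32. The later steps of beta-oxidation were as low as the 7 genes, with medians of -0.73 and -0.65 and 0 of 8 above sham in either condition, while the carnitine shuttle was at -0.26 and 0.22. The part of these cell types was not tested.

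On days 28 and 56 the conditions differed in sign against their sham arrays. The diabetic arrays had all 7 genes above sham on day 28 (50.5% of all probe sets), where Etfb stood at 2e-04, and 6 of 7 on day 56 (48.4%), with medians of 0.26 and 0.20. Acadm led with 0.49 and 0.37. The non-diabetic arrays had none above sham on day 28 (56% of all probe sets) or day 56 (31.9%), with medians of -0.31 on both days. Etfdh (-0.63) and Acadm (-0.70) were furthest below sham on day 28, and Etfa (-0.66) on day 56. The median of all probe sets on the non-diabetic day 56 array also lay below sham, at -0.22, and relative to it the median of the 7 genes was -0.09. On the non-diabetic day 28 array the median of all probe sets was 0.05. The citrate cycle and respiratory chain list had medians of the same signs: 0.32 and 0.23 on diabetic arrays and -0.20 and -0.17 on non-diabetic arrays on days 28 and 56, so the signs were not particular to the 7 genes. The later steps of beta-oxidation were at 0.11 and -0.03 on diabetic arrays and at -0.38 and -0.42 on non-diabetic arrays. Against sham, fibroblast markers had medians of 0.24 and 1.00 on the diabetic arrays of days 28 and 56, and 1.27 and -0.57 on the non-diabetic ones. Macrophage markers were at -0.02 and -0.40 on diabetic arrays and at 0.95 and -1.39 on non-diabetic arrays, and neutrophil markers at -0.07 and -1.19, and at 1.55 and -1.69, in the same order. The part of these cells was not tested.

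**Figure D3:**
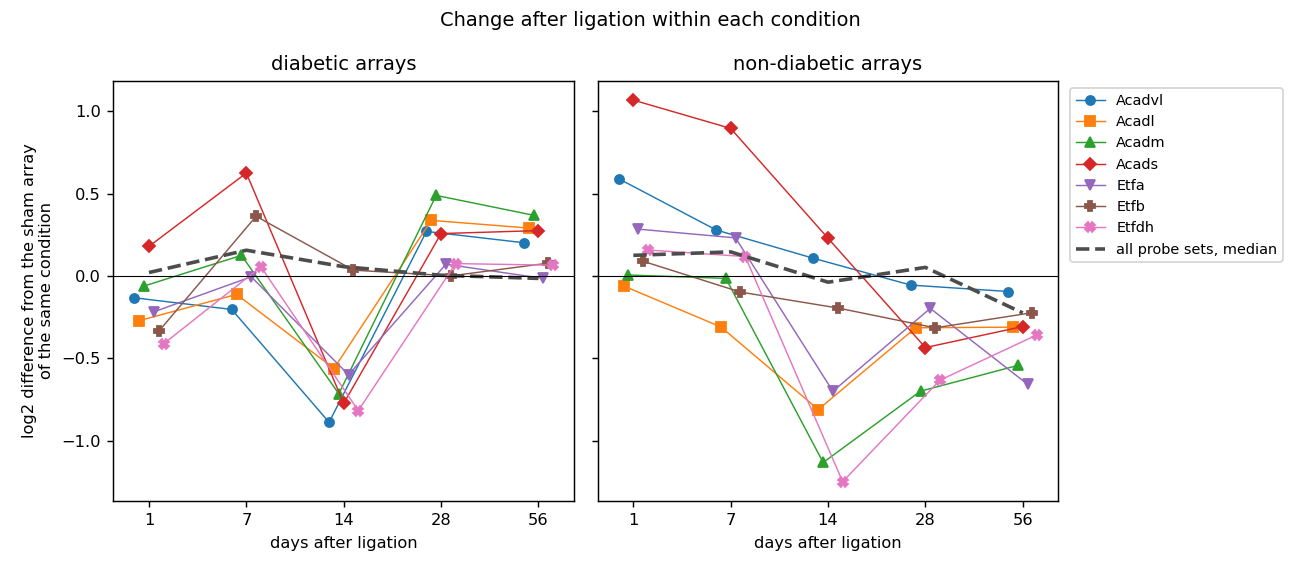
Log2 difference of each day from the sham array of the same condition, diabetic arrays on the left and non-diabetic arrays on the right, with days after ligation on the horizontal axis. Coloured lines are the 7 genes and the dashed line is the median of all 18625 probe sets. Day 14 is the low point of most genes in both panels, and on days 28 and 56 the non-diabetic lines are below 0.

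Over both conditions together, no member passed in the comparison of days 1 and 7 with sham, where limma called 12.2% of all probe sets. In it 0 members had an unadjusted limma p under 0.05, against 29.7% of all probe sets. Acads had the largest difference there, 0.69 ± 0.34 (SE, limma adjusted p = 0.201). Of all 18625 probe sets 0% passed for days 14 to 56 against sham. There 0 members had an unadjusted limma p under 0.05, against 7.7% of all probe sets (1434). All 7 members lay below 0 in that comparison, with a median of -0.23 beside -0.02 for all probe sets, of which 46.3% were above 0. Of the later steps of beta-oxidation 0 of 8 genes were above 0 (median -0.35), and of the carnitine shuttle 2 of 6. The common sign was thus not particular to the 7. Etfdh was at -0.49 ± 0.24, Acadm at -0.37 ± 0.23 and Etfa at -0.35 ± 0.21, with limma adjusted p of 0.666, 0.725 and 0.715.

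The direct comparison of days 14 to 56 with days 1 and 7 gave the 1 call among the 7. Acads fell by 0.82 ± 0.25 on the log2 scale (SE, limma adjusted p = 0.0282), where 34.6% of all probe sets were called and 23% were lower. Etfdh (-0.47 ± 0.19), Etfa (-0.42 ± 0.17) and Acadm (-0.39 ± 0.19) had limma adjusted p of 0.0743, 0.0712 and 0.127. All 7 were below 0, with a median of -0.39 beside -0.14 for all probe sets, of which 38.5% were above 0. So were all genes of the later steps of beta-oxidation (0 of 8 above 0, median -0.26), while 4 of 6 carnitine shuttle genes were above 0. The Acads call was lost without the day 1 pair (-0.89, adjusted p = 0.0605), without the day 7 pair (-0.75, adjusted p = 0.146) and with quantile normalization (-0.66, adjusted p = 0.0657), and held in its other alternatives. Without the day 28 pair 4 members were called, as Etfa (-0.57), Etfdh (-0.57) and Acadm (-0.52) joined Acads (-0.84). The comparison runs along the split in the beta-actin measure, and the 2 cannot be told apart. Median differences in it were 0.13 for cardiomyocyte markers, 0.18 for fibroblast markers, -0.73 for macrophage markers and -1.45 for neutrophil markers, and their part was not tested.

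Among themselves, the 7 genes differed in how closely they ran together over the 12 arrays. Acadm correlated with Etfdh at Pearson's r = 0.96, with Acadl at 0.92 and with Etfa at 0.87, and Etfdh correlated with Acadl and with Etfa at 0.87 each. Acadl with Etfa was lower, at 0.75. Acadvl reached 0.79 with Acadm and 0.74 with Acadl, and Acads at most 0.69, with Etfa. Over these 12 arrays Etfb stood apart, with r between 0.06 (Acadvl) and 0.47 (Acads), and 0.37 with its partner subunit Etfa. Over sham and days 14 to 56 alone (8 arrays), Acadm gave 0.99 with Acadl and 0.96 with Etfdh, so that this likeness was not limited to the contrast with days 1 and 7. In the 6 diabetic minus non-diabetic differences the closest pair was Acadvl and Acads, at 0.98. There Etfb stood less apart, with r between 0.32 (Acadvl) and 0.76 (Acadl), and 0.58 with Etfa. The points share arrays, pools and scaling, and these values are descriptions.

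**Figure D4:**
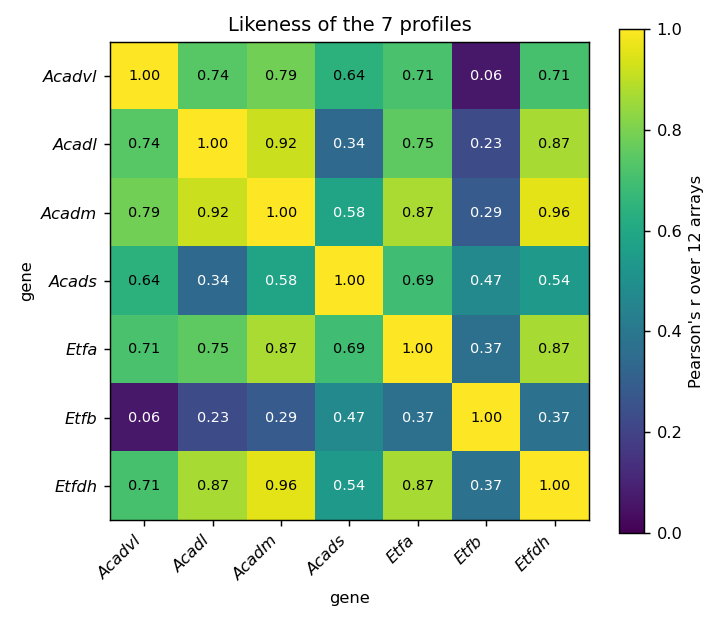
Pearson's r between the 7 genes over the 12 arrays, from dark (0) to bright (1), with the value in each cell. Acadm with Etfdh (0.96) is the brightest pair, and the row of Etfb is dark, between 0.06 and 0.47.

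Of 10616 other genes, those with the profile most like a member's included other enzymes of fatty acid oxidation. For Acadvl they were Eci1, an enoyl-CoA isomerase (r = 0.94 over 12 arrays), Hadha, the alpha subunit of the trifunctional protein (0.89), and Fbxo9 (0.87). For Acadl they were Hadh, the hydroxyacyl-CoA dehydrogenase (0.94), Ndufs1 of complex I (0.94) and Ints13 (0.90). For Acadm they were Uqcrc2 of complex III (0.95), the mitochondrial chaperone Hspa9 (0.95) and Hadh (0.94). Etfdh was most like Dhrs4 (0.97), Kmt5b (0.96) and Zdhhc17 (0.96), and Etfa most like the isocitrate dehydrogenase Idh1 (0.98), Acbd5 (0.95) and Atl2 (0.94). Acads was nearest to Mtif2 (0.90), Suclg1 of the citrate cycle (0.89) and Dzip3 (0.88). Etfb had the least close neighbours, Actr3b (0.87), Rnf128 (0.85) and Edrf1 (0.84).

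The steps on either side of the 7 genes were read in the same diabetes comparison, over 10623 genes with a median of -0.01 and 48.1% above 0. Upstream, 0 of 6 carnitine shuttle genes passed, with a median of 0.17. Cpt1a, the liver-type carnitine palmitoyltransferase of the outer membrane, was at 0.99 ± 0.20 (limma adjusted p = 0.0779), and Crat, carnitine acetyltransferase, at 0.52 ± 0.21 (adjusted p = 0.405). Cpt1b, the muscle form, was at 0.16 ± 0.15. Downstream, 1 of 8 genes of the later steps passed, against 0.376% of all probe sets, with 7 of 8 above 0 and a median of 0.47. The 1 was Decr1, the dienoyl-CoA reductase needed for unsaturated fatty acids, which rose by 1.43 ± 0.19 (adjusted p = 0.00892). Hadhb (0.49 ± 0.12, adjusted p = 0.175) and Hadha (0.63 ± 0.18, adjusted p = 0.225), the subunits of the trifunctional protein, and Eci1 (0.58 ± 0.19, adjusted p = 0.299) did not pass.

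A mixed list of other acyl-CoA dehydrogenases and of electron donors of the flavoprotein showed no common direction. Of 8 that passed the filter, 5 were above 0 and 0 were called, with a median of 0.11. Ivd, the isovaleryl-CoA dehydrogenase of leucine breakdown, was at -0.70 ± 0.20 (limma adjusted p = 0.225) and Gcdh, the glutaryl-CoA dehydrogenase of lysine breakdown, at -0.41 ± 0.17 (adjusted p = 0.426). Acad11 was at 0.54 ± 0.23 (adjusted p = 0.439) and Acad10 at 0.30 ± 0.25 (adjusted p = 0.708). Among 8 genes of FAD supply and of partners of the flavoprotein, 0 were called and 2 were above 0, with a median of -0.06. Etfbkmt, which methylates Etfb, was at 0.80 ± 0.26 (adjusted p = 0.299), and Flad1, the FAD synthase, at -0.39 ± 0.15 (adjusted p = 0.396). Coq7 and Coq9, of ubiquinone synthesis, were at -0.27 ± 0.16 and -0.33 ± 0.20.

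Of 4 peroxisomal genes 0 passed, with a median of 0.19, and Ehhadh, the peroxisomal bifunctional enzyme, was highest at 0.57 ± 0.19 (limma adjusted p = 0.314). Of 9 transcriptional regulators 0 passed, with a median of 0.02, and Ppargc1a, which encodes PGC-1 alpha, was at 0.50 ± 0.29 (adjusted p = 0.572). By contrast 4 of 9 fatty acid responsive genes passed and were higher, with all 9 above 0 and a median of 1.14. Over all probe sets 0.376% were called (70), a number that ran from 6 to 92 when a time point was left out. The 4 genes were Acot1 and Acot2, acyl-CoA thioesterases, Pdk4, the kinase that inhibits pyruvate dehydrogenase, and Angptl4, an inhibitor of lipoprotein lipase. Acot1 rose by 2.45 ± 0.15 (adjusted p = 4.92e-05), Pdk4 by 2.46 ± 0.36 (adjusted p = 0.0171), Acot2 by 1.25 ± 0.19 (adjusted p = 0.0227) and Angptl4 by 2.73 ± 0.49 (adjusted p = 0.0423). Of 14 citrate cycle and respiratory chain genes 0 passed, with a median of 0.03. The lists were drawn up with earlier results of these data known, so their counts are no independent evidence of direction.

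**Figure D5:**
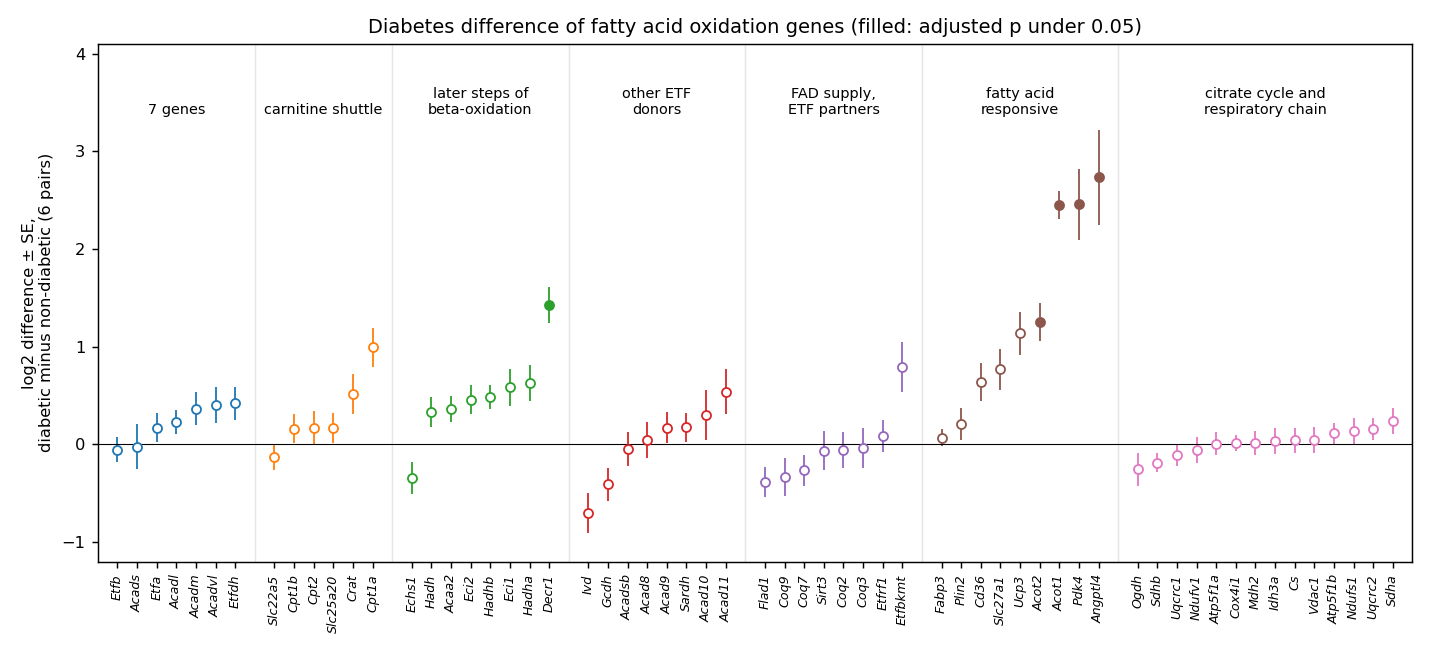
Diabetic minus non-diabetic log2 difference with its standard error (limma, 6 pairs) on the vertical axis, with genes grouped by their step along the horizontal axis. Filled symbols passed an adjusted p of 0.05. The 7 genes lie between -0.06 (Etfb) and 0.42 (Etfdh), all open, and Decr1 and 4 fatty acid responsive genes are filled.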

How the data were processed

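Each of the 12 rat arrays held the pooled RNA of 3 rats. The authors deposited 1 linear intensity per probe set and array, computed by PLIER in Affymetrix Expression Console, per the submitters' processing notes. Versions, the background step and any scaling are not stated there. Of 31099 probe sets 57 controls were left out, and 20826 of the 31042 others had 1 gene symbol, 436 several and 9780 none listed. Values were taken as log2(intensity + 16) with no further scaling, and probe sets with a mean above the 40th percentile were kept (18625, for 10623 genes). A gene's probe set is the one with the highest mean.

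limma 3.58.1 in R 4.3.3 (lmFit, eBayes with a trend) was fitted to all probe sets and 12 arrays with time point and diabetes as terms, which leaves 5 residual degrees of freedom (4 with the interaction), with Benjamini-Hochberg adjustment over all probe sets kept and a threshold of 0.05. With 1 array per condition and time point, the residual spread is that of the diabetic minus non-diabetic difference over time points, and pooling hides differences between rats. The number of arrays limits precision. Alternatives were other offsets, scalings, filters, variance moderation and arrays left out. All 7 members are named, plus up to 4 genes per list with the smallest p for diabetes and 2 for days 1 and 7 against sham, and the 3 genes most alike each member; others named were chosen after their values were seen. Members, lists and the split of time points in the interaction were chosen with earlier results of these data known. Promoter windows are RefSeq's (GRCr8).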

Additional observations from a re-analysis of the deposited data

Results flagged for a closer look

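Etfa, the alpha subunit of the electron transfer flavoprotein, was lower on the diabetic array in both pairs of days 1 and 7 (-0.37 and -0.11 on the log2 scale) and higher in the 4 pairs of sham and days 14, 28 and 56 (0.13, 0.23, 0.40 and 0.77). What drew attention was that every pair of one set went one way and every pair of the other the opposite way. How many of all probe sets split in this way is not given here. The difference between the sets was above 0 for only 36.9% of all probe sets. It was above 0 for 0 of 14 citrate cycle and respiratory chain genes and 0 of 9 cardiomyocyte markers, so its sign was not particular to Etfa. For Etfa the difference between the sets was -0.62 ± 0.28 (SE), with limma's adjusted p = 0.999 and an unadjusted p of 0.0469. The 2 sets were chosen with earlier results of these data known. The 4 arrays of days 1 and 7 are also those with the higher beta-actin 3′ to 5′ difference (0.975 to 0.994, against 0.365 to 0.586 on the other 8), and the 2 cannot be told apart.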

How the results depend on the processing

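In the diabetes comparison, in both comparisons with sham and in the interaction, 0 members passed under every alternative run. For days 14 to 56 minus days 1 and 7 the count of members was 1, against 0 with quantile normalization and 0 to 4 when a time point was left out. Among all probe sets, leaving out a time point gave 6 to 92 calls for diabetes (70 with all arrays; lowest without day 56, and 20, 43 and 21 without sham, day 7 and day 14), 917 to 3728 for days 1 and 7 minus sham (2269), 0 to 107 for days 14 to 56 minus sham (0), 3281 to 7774 for days 14 to 56 minus days 1 and 7 (6450) and 0 to 3 for the interaction (0). Without a filter days 1 and 7 minus sham had 4010 calls and days 14 to 56 minus days 1 and 7 had 9737; with a filter at the 60th percentile they had 901 and 4043, and the interaction 2, as with robust moderation. Diabetes had 41 calls on sham and days 14 to 56, 3 on days 1 and 7, and 14 with no time point term, that is, with the arrays of a time point not paired. Members above 0 on day 1 numbered 1 with quantile normalization and 1 with medians set equal, and members past 1.5-fold on day 56 numbered 2 with quantile normalization; these settings were added after seeing the data.

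Members whose direction turned all had differences that did not pass. With quantile normalization these were Etfa (-0.0051) and Etfb (-0.0431) for days 1 and 7 minus sham and Etfb (0.0026) for days 14 to 56 minus days 1 and 7. With medians set equal they were Acadm (-0.0503) and Etfb (-0.0597) for days 1 and 7 minus sham and Acadl (0.0119) for days 14 to 56 minus days 1 and 7. For diabetes, Acads (0.1937) and Etfb (0.0093) turned on sham and days 14 to 56, and Acadl (-0.0232), Acadm (-0.0286), Etfa (-0.2411) and Etfdh (-0.05) on days 1 and 7. Leaving out a time point gave ranges across 0 for Acads (-0.19 to 0.15) and Etfb (-0.12 to 0.059) for diabetes, for Etfdh (-0.13 to 0.086), Acadm (-0.028 to 0.055) and Etfb (-0.12 to 0.13) for days 1 and 7 minus sham, for Acadvl (-0.17 to 0.080) and Acadl (-0.35 to 5e-04) for days 14 to 56 minus sham, for Acadl (-0.16 to 0.19) and Etfb (-0.24 to 0.020) for days 14 to 56 minus days 1 and 7, and for Etfb (-0.64 to 0.25) in the interaction. The cause was not tested. Each gene had 1 probe set, so other probe sets gave no value.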

Other observations

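Among genes near the 7, a few differed between the time points. Over all probe sets, limma called 12.2% for days 1 and 7 minus sham, and 34.6% for days 14 to 56 minus days 1 and 7. In the second comparison 1 of 8 genes of FAD supply and flavoprotein partners was called higher and 2 lower. Of 8 other acyl-CoA dehydrogenases and electron donors 1 was called higher and 1 lower, so such calls were not particular to these genes. Acadsb, the dehydrogenase of short branched chains, had a mean level over all arrays of 5.21, just above the filter at 5.20. It fell by 1.35 ± 0.26 on the log2 scale (SE, limma adjusted p = 0.00937) on days 1 and 7 against sham. It was higher on days 14 to 56 than on days 1 and 7 by 1.28 ± 0.19 (adjusted p = 0.000904), the opposite direction to Acads. The mean level of Acadsb on days 1 and 7 thus lay below the filter, which it passed only through sham and days 14 to 56. Both calls and the contrast with Acads rest on these dim values, so no conclusion is drawn from them. Plin2, a lipid droplet coat protein, rose by 1.23 ± 0.25 (adjusted p = 0.0117) on days 1 and 7 against sham. On days 14 to 56 against days 1 and 7, Etfrf1, a regulator of the electron transfer flavoprotein, fell by 0.78 ± 0.18 (adjusted p = 0.00846), Acad9, a dehydrogenase that also serves complex I assembly, fell by 0.51 ± 0.18 (adjusted p = 0.0444), and Flad1, the FAD synthase, rose by 0.67 ± 0.17 (adjusted p = 0.0121). These contrasts run along the beta-actin split, and Etfrf1, Acad9 and Flad1 were singled out here after their values were seen.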
